A study of Homo sapiens with 7 samples.

Results

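Immune checkpoint ligands are proteins on the surface of, or released by, a cell that restrain the immune cells meeting it. The 9 genes CD274, PDCD1LG2, CD276, VTCN1, CD47, NT5E, PVR, NECTIN2 and LGALS9, chosen by name for this role in tumour cells, were followed among the 18417 genes that a probe of the array named alone. All 9 were measured, each by 1 probe. RNA came from SUM159, a human triple-negative breast cancer line of mesenchymal type, kept in 2D culture and hybridised to 7 Human Gene 1.0 ST arrays, on which the brightness of many short probes along a transcript stands for its RNA level. All cells carried a lentiviral hairpin switched on by doxycycline, which the labels give for 15 days in every group, controls included. The hairpin was a control on 2 arrays (Ctrl shRNA, in the labels also CTRL miR), the first against SHP2 on 2 arrays (SHP2 sh1, or SHP2 miR1) and the other against SHP2 on 3 arrays (SHP2 sh2, or SHP2 miR2). Whether the transduced cells were a pool or a clone, and whether a group's arrays stem from different cultures, is not given, so the p-values measure only how far these arrays differ, and that spread may be technical. SHP2 is a tyrosine phosphatase that carries signals from growth factor receptors to the RAS and MAPK pathway, and the comparison asks how its depletion changes the RNA of these cells.

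CD274 (PD-L1) and PDCD1LG2 (PD-L2) bind PD-1 on T cells, and CD276 (B7-H3) and VTCN1 (B7-H4) are relatives of them in the B7 family. CD47 binds SIRPA on macrophages and holds back engulfment, NT5E (CD73) is the surface enzyme that makes adenosine from AMP, PVR (CD155) and NECTIN2 (CD112) are nectin proteins bound by TIGIT and other receptors of T and natural killer cells, and LGALS9 (galectin-9) is a secreted lectin that binds TIM-3 and other glycoproteins. CD274 is known as a target of interferon gamma through JAK kinases and IRF1, and NT5E is known as a marker of mesenchymal cells. The immune cells that would read these ligands were not part of the culture.

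Promoter sequence was set beside the values for the genes of the 9 with the largest differences between arrays (CD274 and NT5E), for the gene lower on every SHP2 array (PVR) and for the gene that differed most between the hairpins (LGALS9). The sequences are the RefSeq windows of build GRCh38.p14, from 250 bases before to 50 bases after the annotated start. They lie at chr9:5450292-5450591 (CD274), chr6:85449833-85450132 (NT5E), chr19:44643660-44643959 (PVR) and chr17:27630938-27631237 (LGALS9), all on the plus strand. Capitals mark matches, on either strand, to the gamma-activated sequence GAS (TTCNNNGAA) and to the core of the interferon regulatory factor element (IRF core, GAAANNGAAA).
CD274: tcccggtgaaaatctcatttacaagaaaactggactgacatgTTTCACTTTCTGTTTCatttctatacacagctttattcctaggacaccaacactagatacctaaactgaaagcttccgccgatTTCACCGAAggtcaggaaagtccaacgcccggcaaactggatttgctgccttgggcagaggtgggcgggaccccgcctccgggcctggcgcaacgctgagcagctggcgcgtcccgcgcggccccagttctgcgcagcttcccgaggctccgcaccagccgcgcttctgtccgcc
NT5E: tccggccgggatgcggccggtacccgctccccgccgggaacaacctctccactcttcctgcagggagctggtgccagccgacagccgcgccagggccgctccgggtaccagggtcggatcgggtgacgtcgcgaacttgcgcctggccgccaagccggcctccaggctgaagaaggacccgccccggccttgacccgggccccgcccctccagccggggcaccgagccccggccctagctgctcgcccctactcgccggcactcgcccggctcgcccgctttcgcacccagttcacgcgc
PVR: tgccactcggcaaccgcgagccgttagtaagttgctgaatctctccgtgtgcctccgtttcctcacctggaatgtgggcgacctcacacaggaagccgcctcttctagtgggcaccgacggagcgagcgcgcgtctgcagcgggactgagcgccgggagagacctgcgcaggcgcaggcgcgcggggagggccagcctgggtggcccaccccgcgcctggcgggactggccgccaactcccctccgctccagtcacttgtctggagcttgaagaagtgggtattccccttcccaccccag
LGALS9: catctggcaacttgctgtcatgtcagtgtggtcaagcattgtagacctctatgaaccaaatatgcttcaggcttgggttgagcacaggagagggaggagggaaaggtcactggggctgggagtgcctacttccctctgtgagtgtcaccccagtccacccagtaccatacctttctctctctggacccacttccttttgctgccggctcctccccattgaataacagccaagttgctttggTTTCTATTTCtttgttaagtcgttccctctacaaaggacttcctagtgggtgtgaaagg
The CD274 window held the GAS letters TTCACCGAA at position -125 from the start and a pair of overlapping IRF core matches from -208 and from -202, both read on the minus strand. LGALS9 held 1 IRF core match at -9. The windows of NT5E and PVR held neither. Among all 35116 windows of the table, 7.66% held a GAS match and 3.57% an IRF core match. Of the 9 genes, 8 had a window, and CD276 had 2. The other motifs searched on both strands were the hypoxia element (ACGTG or GCGTG), in 48.4% of all windows and in those of CD276, CD47, NECTIN2, NT5E and VTCN1, the ETS core (CCGGAA), in 17.2% of all windows and in both of CD276, the NF-kB element, in 11.3% and in CD276, AP-1 (TGANTCA), in 7.71% and in VTCN1, and the MYC E-box (CACGTG), which overlaps the hypoxia letters, in 7.26% and in 0 of the 9 windows. A match describes the letters only.

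The values, log2 expression as deposited after robust multi-array averaging, run from 1.94 to 13.9 over all probes. A level of one gene cannot be set against that of another, because each rests on its own probes. PTPN11, the gene of SHP2, read 9.53 and 9.18 on the Ctrl shRNA arrays, 7.90 and 6.93 on the SHP2 sh1 arrays and 7.96, 7.20 and 7.89 on the SHP2 sh2 arrays, so every array labelled with an SHP2 hairpin lay at least 1.21 under the lower control. Replicate 2 of SHP2 sh1 and replicate 2 of SHP2 sh2 stood apart from the other 5 arrays. Over all probes their correlation with the others was 0.886 to 0.965, against 0.981 to 0.992 among the others and 0.972 between these 2. On them the brightest 25% of genes, ranked by control level, had median differences from the controls of -0.61 and -1.01, and the dimmest 25% of 0.26 and 0.53. VIM (11.6 to 12.2) and FN1 (12.1 to 12.9), which mark mesenchymal cells, were bright on all 7 arrays, and of the epithelial markers EPCAM was at 2.89 to 4.10 and CDH1, E-cadherin, reached 7.42 at most, on an array that stood apart, while the keratins KRT8 (9.73 to 11.25) and KRT18 (8.65 to 9.87) were bright on all 7. Among the leukocyte markers PTPRC was at 3.90 to 4.75 and CD68 and NKG7 were the brightest, at 7.98 to 9.09 and 6.92 to 8.14. The log2 levels of the 10 leukocyte markers measured, of 11 listed, summed to 59.4 and 60.6 in the controls, 60.8 and 64.0 with SHP2 sh1 and 60.6 to 64.5 with SHP2 sh2. For 5 endothelial markers the sums were 27.7 and 28.8, 29.5 and 29.8, and 29.1 to 31.1, for 5 fibroblast markers 35.0 and 35.3, 36.1 and 38.0, and 33.9 to 35.8, for 8 epithelial and receptor markers 52.8 and 54.0, 53.5 and 56.2, and 54.5 to 56.6, and for 7 mesenchymal markers 74.5 and 75.1, 73.9 and 75.9, and 69.7 to 76.7. The part of these shifts in the results below was not tested.

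CD274 (probe 8154233) varied more than almost any gene: its interquartile range over the 7 arrays was above that of 99.9% of genes. It was at 8.37 and 8.16 on the Ctrl shRNA arrays, 8.76 and 5.25 on the SHP2 sh1 arrays and 6.98, 4.75 and 7.76 on the SHP2 sh2 arrays. The lowest values, 5.25 and 4.75, were those of the arrays that stood apart, and SHP2 sh1 replicate 1 lay above both controls, while all 3 SHP2 sh2 arrays lay below both, by at least 0.40. The group means were 8.26 ± 0.15 (SD, n = 2), 7.003 ± 2.48 (SD, n = 2) and 6.50 ± 1.56 (SD, n = 3), which do not differ beyond the spread between arrays. The log2 fold change against Ctrl shRNA was -1.26 with SHP2 sh1 (standard error 1.30, 95% interval -4.38 to 1.86) and -1.76 with SHP2 sh2 (standard error 1.19, interval -4.61 to 1.08), with adjusted p of 0.995 and 0.667 from limma. The intervals allow a large decrease as well as an increase. A lower level from fewer cells with the transcript and one from less RNA in every cell cannot be told apart in such bulk samples.

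PDCD1LG2 (probe 8154245), the other ligand of PD-1, was at 7.89 and 8.24 on the Ctrl shRNA arrays, 8.16 and 6.38 on the SHP2 sh1 arrays and 7.44, 6.43 and 7.81 on the SHP2 sh2 arrays. It had the same order of arrays as CD274 in that the lowest 2 values were on the arrays that stood apart, and its SHP2 sh2 values all lay under the lower control, the nearest by 0.08. Its log2 fold change was -0.79 with SHP2 sh1 (standard error 0.66, interval -2.37 to 0.78) and -0.84 with SHP2 sh2 (standard error 0.60, interval -2.28 to 0.60), with adjusted p of 0.995 and 0.667 from limma.

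CD276 (probe 7984743) hardly varied. It was at 9.74 and 9.48 on the Ctrl shRNA arrays, 9.89 and 9.70 on the SHP2 sh1 arrays and 9.98, 9.55 and 9.76 on the SHP2 sh2 arrays, a range of 0.49 over all 7 arrays, and 31.4% of genes had a smaller interquartile range. The groups overlapped, and the arrays that stood apart lay inside the range of the rest. The log2 fold changes were 0.18 (interval -0.37 to 0.74) and 0.15 (interval -0.36 to 0.66), so a change of more than 2-fold in either direction lay outside both intervals.

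VTCN1 (probe 7918936) was dim, among the dimmest 25% of genes by control level, at 4.87 and 4.83 on the Ctrl shRNA arrays, 4.63 and 5.92 on the SHP2 sh1 arrays and 5.05, 5.92 and 4.84 on the SHP2 sh2 arrays. It was the 1 gene of the 9 whose highest values, 5.92 and 5.92, came from the arrays that stood apart. On those 2 arrays dim genes were higher in general, as given above, and within the dimmest 25% of genes 98.98% and 95.8% had a lower difference from the controls than VTCN1. The part of the general shift in the VTCN1 values was not tested. The log2 fold changes were 0.43 (interval -0.79 to 1.64) and 0.42 (interval -0.69 to 1.53).

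CD47 (probe 8089299) was bright, among the brightest 25% of genes by control level, at 10.54 and 10.62 on the Ctrl shRNA arrays, 10.59 and 8.90 on the SHP2 sh1 arrays and 10.00, 8.38 and 10.19 on the SHP2 sh2 arrays. SHP2 sh1 replicate 1 lay between the controls, and the 3 SHP2 sh2 arrays all lay under them, the nearest by 0.35. The controls differed by far less than the hairpin arrays among themselves, with means of 10.58 ± 0.06 (SD, n = 2), 9.75 ± 1.19 (SD, n = 2) and 9.53 ± 0.99 (SD, n = 3). Its log2 fold change was -0.84 with SHP2 sh1 (standard error 0.74, interval -2.61 to 0.93) and -1.06 with SHP2 sh2 (standard error 0.67, interval -2.67 to 0.56), with adjusted p of 0.995 and 0.667 from limma.

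NT5E (probe 8120967) went with CD274. It was at 10.60 and 10.47 on the Ctrl shRNA arrays, 10.89 and 7.47 on the SHP2 sh1 arrays and 9.68, 7.14 and 10.01 on the SHP2 sh2 arrays, and 99.8% of genes had a smaller interquartile range. As for CD274, SHP2 sh1 replicate 1 lay above both controls, the SHP2 sh2 arrays lay below both by at least 0.46, and the arrays that stood apart were the lowest. The means were 10.53 ± 0.10 (SD, n = 2), 9.18 ± 2.42 (SD, n = 2) and 8.94 ± 1.57 (SD, n = 3). Against Ctrl shRNA the log2 fold change was -1.35 with SHP2 sh1 (standard error 1.29, interval -4.44 to 1.74) and -1.59 with SHP2 sh2 (standard error 1.18, interval -4.41 to 1.23), with adjusted p of 0.995 and 0.667 from limma.

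PVR (probe 8029437) was at 9.37 and 9.17 on the Ctrl shRNA arrays, 8.98 and 8.59 on the SHP2 sh1 arrays and 9.04, 8.48 and 9.04 on the SHP2 sh2 arrays. It was the 1 gene of the 9 that was lower on all 5 SHP2 arrays than on both controls, with a gap of 0.13. Of all genes, 7.17% were lower in this way. Among genes of like control brightness, 11.4% and 46.5% had a lower difference from the control mean than PVR on the SHP2 sh1 arrays. On the SHP2 sh2 arrays these shares were 43.4%, 59.9% and 23.8%. The log2 fold change was -0.49 with SHP2 sh1 (standard error 0.28, interval -1.16 to 0.19) and -0.42 with SHP2 sh2 (standard error 0.26, interval -1.03 to 0.20), and for the average of the hairpins -0.45 (standard error 0.24, interval -1.02 to 0.11, adjusted p = 0.758 from limma). NECTIN2 (probe 8029507), its relative, showed no such order. It was at 7.91 on both Ctrl shRNA arrays, 8.23 and 7.73 on the SHP2 sh1 arrays and 7.67, 7.61 and 8.22 on the SHP2 sh2 arrays, so each hairpin had arrays on either side of the controls. The control values of NECTIN2 are identical, as are those of 5.40% of probes, so their SD of 0 is no measure of its spread. Its log2 fold changes were 0.07 (interval -0.63 to 0.77) and -0.07 (interval -0.71 to 0.57).

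LGALS9 (probe 8005809) was the 1 gene of the 9 whose values did not overlap between the hairpins. It was at 6.95 and 7.46 on the Ctrl shRNA arrays, 7.74 and 7.61 on the SHP2 sh1 arrays and 6.60, 7.05 and 6.84 on the SHP2 sh2 arrays. Both SHP2 sh1 arrays lay above all others, and the SHP2 sh2 arrays lay under them but overlapped the controls. The means were 7.21 ± 0.35 (SD, n = 2), 7.68 ± 0.09 (SD, n = 2) and 6.83 ± 0.22 (SD, n = 3). SHP2 sh2 against SHP2 sh1 gave a log2 fold change of -0.85 (standard error 0.24, interval -1.42 to -0.28), with an unadjusted p of 0.010 and an adjusted p of 1 from limma, where 0.63% of all genes had an unadjusted p under 0.05. Against Ctrl shRNA its values were 0.47 (interval -0.15 to 1.10) with SHP2 sh1 and -0.38 (interval -0.95 to 0.20) with SHP2 sh2. LGALS9 has near-identical copies, LGALS9B and LGALS9C, so its level is uncertain where probes could bind more than 1 of them.

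**Figure D1:**
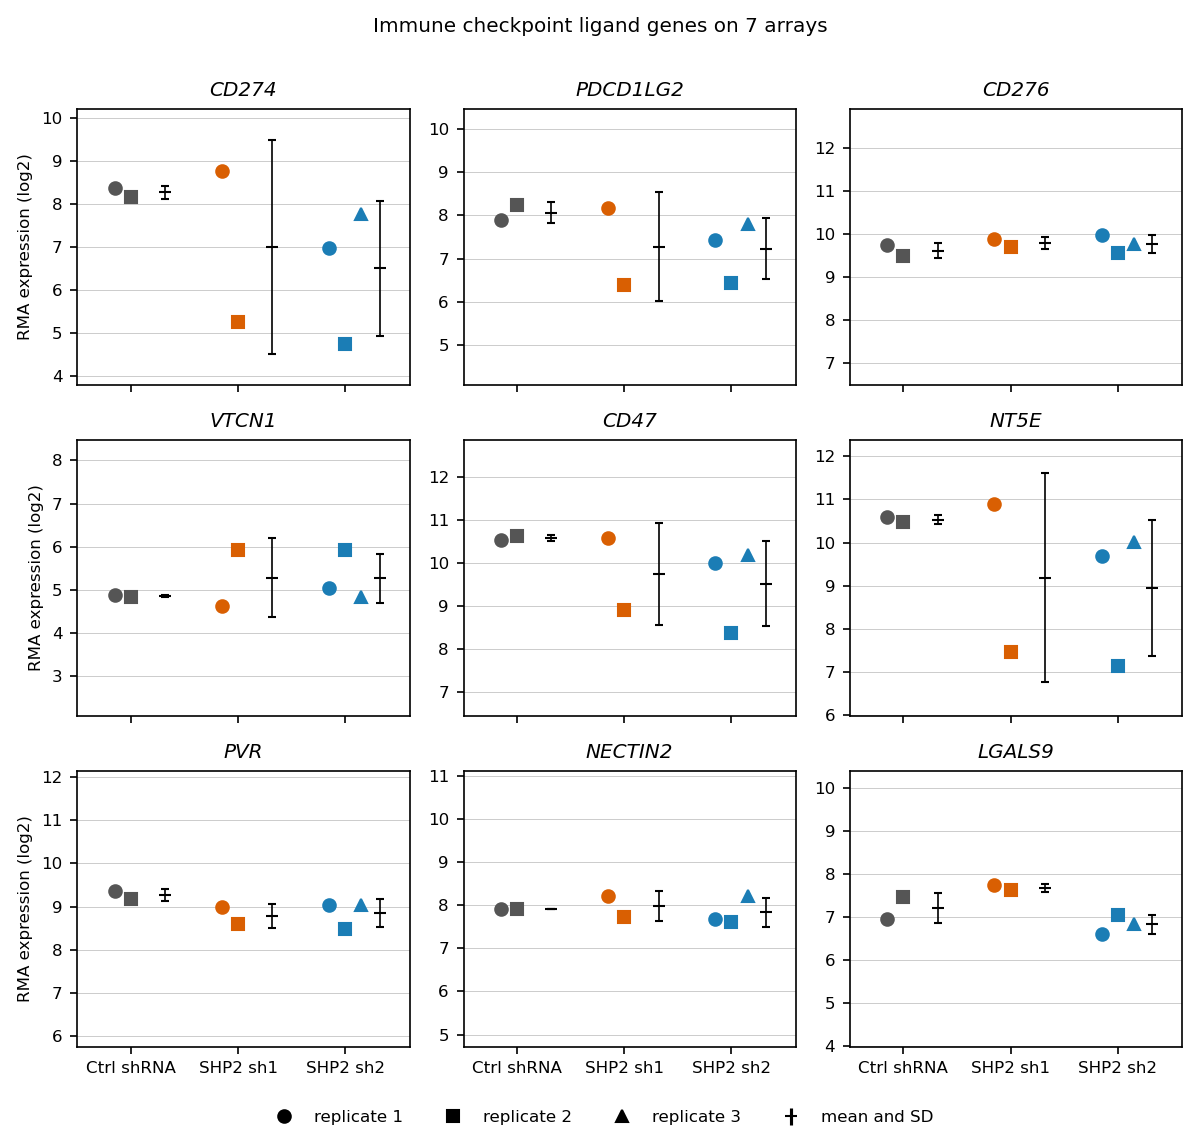
Log2 expression (y axis, of equal span in every panel) of the 9 genes on each array, by group on the x axis; circles, squares and triangles are replicates 1, 2 and 3, and the bars at the side give the mean and SD. On replicate 2 of the SHP2 hairpins CD274 lies at 5.25 and 4.75 and NT5E at 7.47 and 7.14, while CD276 lies between 9.48 and 9.98 on all arrays.

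Across all genes limma called 0 of 18417, or 0%, at an adjusted p under 0.05 in all 4 comparisons (each hairpin and their average against Ctrl shRNA, and SHP2 sh2 against SHP2 sh1), and so 0 of the 9 genes in each. The genes with an unadjusted p under 0.05 numbered 201, 432, 358 and 116, with LGALS9 between the hairpins as the 1 gene of the 9. The adjusted p of the 9 genes was 0.995 with SHP2 sh1, 0.667 to 0.876 with SHP2 sh2 and 0.758 to 0.998 for the average of the hairpins. The median log2 fold change of the 9 was -0.49 with SHP2 sh1, -0.42 with SHP2 sh2 and -0.45 for their average, against 0.04, 0.09 and 0.08 over all genes, and 5, 7 and 6 of the 9 lay below 0. These comparisons share the Ctrl shRNA arrays. Read by array, the median difference of the 9 genes from the control mean was 0.28 on SHP2 sh1 replicate 1, -0.68 on SHP2 sh1 replicate 2, and -0.58, -0.79 and -0.26 on SHP2 sh2 replicates 1, 2 and 3. Only SHP2 sh1 replicate 1 had most of the 9 above the controls, with 2 below, whereas 6 to 8 were below on the other 4 arrays. On SHP2 sh1 replicates 1 and 2 the brightest 25% of genes had median differences of 0.0040 and -0.61. Those on the SHP2 sh2 arrays are given below. The part of brightness in the medians of the 9 genes was not tested.

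Groups that do not overlap can be counted without a model. With SHP2 sh2, 5 of the 9 genes (CD274, PDCD1LG2, CD47, NT5E and PVR) lay under both controls on all 3 arrays, where 16.1% of all genes did, and 0 of 9 lay above, where 24.2% did. The shares given here are over genes of all brightness. CD274, CD47, NT5E and PVR belong to the brightest 25% of genes by control level. The median differences of that 25% from the controls were -0.18, -1.01 and -0.04 on SHP2 sh2 replicates 1, 2 and 3. Shares among genes of like brightness were not computed for these counts. With SHP2 sh1, PVR lay under both controls (12.3% of genes) and LGALS9 above (12.8%). Over all 5 SHP2 arrays PVR was lower (7.17% of genes) and 0 of 9 were higher (8.13%). Between the hairpins, LGALS9 was lower on all SHP2 sh2 arrays than on both SHP2 sh1 arrays, as were 3.08% of genes, and 0 of 9 were higher, against 2.21%. On the 3 SHP2 arrays that did not stand apart, PVR was lower than both controls (8.81% of genes) and CD276 was higher (10.1%).

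**Figure D2:**
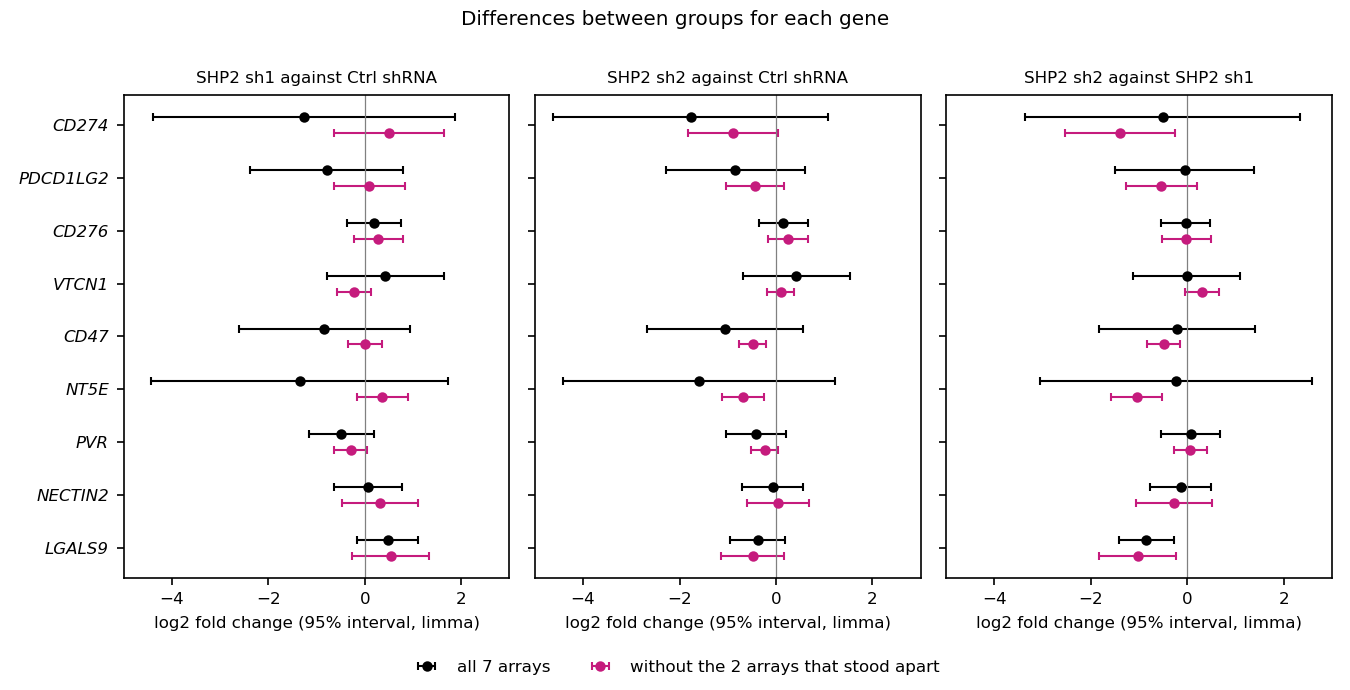
Log2 fold change of each gene on the x axis with its 95% interval from limma, for SHP2 sh1 and SHP2 sh2 against Ctrl shRNA and for SHP2 sh2 against SHP2 sh1, with all 7 arrays (black) and without the 2 arrays that stood apart (pink). The black interval of CD274 with SHP2 sh1 runs from -4.38 to 1.86 around -1.26, and the pink point lies at 0.50.

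The lowest 2 values of CD274, PDCD1LG2, CD47, NT5E and PVR came from the arrays that stood apart. For NECTIN2 only the lowest value did, on SHP2 sh2 replicate 2. The share of all genes with their lowest 2 values on the arrays that stood apart was not computed. Each of the arrays that stood apart was therefore compared with its own hairpin. On SHP2 sh1 replicate 2, CD274 had a log2 difference of -3.51 from replicate 1, and on SHP2 sh2 replicate 2 one of -2.62 from the mean of the other SHP2 sh2 arrays. Its level there was above that of only 15.2% and 8.19% of genes, and with no detection call in the file, whether it lay above background was not tested, so no fold is given. NT5E was 10.7-fold and 6.53-fold lower (-3.43 and -2.71). The median over all genes was 0.12 and 0.14, and only 0.0489% and 0.223% of genes lay below CD274 in these contrasts, and 0.0543% and 0.125% below NT5E. CD47 was lower by 3.21-fold and 3.28-fold and PDCD1LG2 by 3.44-fold and 2.28-fold. PVR (-0.39 and -0.56), NECTIN2 (-0.50 and -0.34) and CD276 (-0.19 and -0.32) differed less, LGALS9 went either way (-0.13 and 0.32), and VTCN1 was higher (1.30 and 0.97). With 1 array on one side, these are differences between arrays and have no test.

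Bright genes as a whole were lower on those arrays, so the genes were also ranked within the 25% of genes of like control brightness, by their difference from the control mean. Within the brightest 25%, 0.239% and 0.152% of genes had a lower difference than CD274 on SHP2 sh1 replicate 2 and SHP2 sh2 replicate 2, and 0.174% and 0.174% a lower one than NT5E. For CD47 the shares were 7.80% and 7.12%, and for PDCD1LG2, within the next 25% of genes by brightness, 2.74% and 7.41%. PVR lay near the middle of these genes, at 46.5% and 59.9%, and CD276 in their upper part, at 84.7% and 86.6%. What set these 2 arrays apart was not tested, and neither was its part in the levels of CD274 and NT5E.

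**Figure D3:**
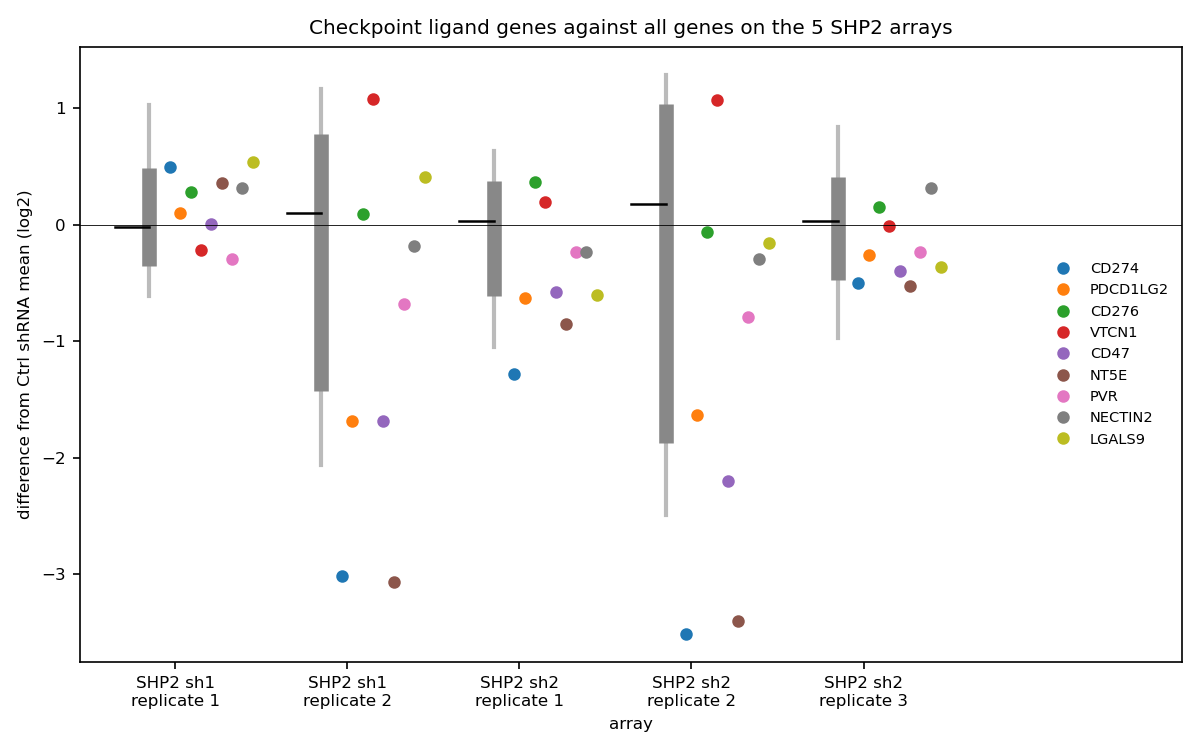
Difference from the Ctrl shRNA mean (log2, y axis) on each of the 5 SHP2 arrays (x axis); dots are the 9 genes, the short black line is the median of all 18417 genes, the thick grey bar spans their 5th to 95th percentile and the thin one their 1st to 99th. CD274 and NT5E lie under the thin bar on the 2 arrays that stood apart, at -3.01 and -3.07 and at -3.51 and -3.39.

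Without those 2 arrays limma again called 0 genes in each comparison (1917, 2233, 1539 and 3463 had an unadjusted p under 0.05), and SHP2 sh1 was left with 1 array, whose spread is assumed to be that of the other groups. For SHP2 sh1 the log2 fold changes of CD274, PDCD1LG2, CD47 and NT5E turned from below 0 to 0.50, 0.10, 0.0043 and 0.36, and the median of the 9 genes from -0.49 to 0.28. That median was -0.44 with SHP2 sh2, -0.16 for the average of the hairpins, against -0.45 with all arrays, and -0.49 between hairpins, against -0.14. For SHP2 sh2 the fold changes of CD274, PDCD1LG2, CD47 and NT5E stayed below 0, at -0.89 for CD274 (interval -1.82 to 0.04), -0.44 for PDCD1LG2 (interval -1.05 to 0.16), -0.49 for CD47 (interval -0.77 to -0.20) and -0.69 for NT5E (interval -1.12 to -0.26). CD47 and NT5E were the 2 genes of the 9 with an unadjusted p under 0.05 here (0.010 and 0.013, adjusted p = 0.389 for both from limma), where 12.1% of all genes had one. The difference between the hairpins became larger for CD274 (-1.39), NT5E (-1.05), CD47 (-0.49) and LGALS9 (-1.02), with unadjusted p of 0.029, 0.0067, 0.019 and 0.025 and adjusted p of 0.247 to 0.251 from limma. These are 4 of the 9 genes, where 18.8% of all genes had an unadjusted p under 0.05. PVR was the 1 gene of the 9 with an unadjusted limma p under 0.05 for the average of the hairpins (-0.26, adjusted p = 0.593), against 8.36% of all genes. VTCN1 had -0.22 with SHP2 sh1 and 0.09 with SHP2 sh2.

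The genes were compared with each other by their 7 differences from the control mean, as the root mean square of what separates a pair of genes over the 7 arrays on the log2 scale. The differences are not scaled, so genes that hardly vary lie near each other. For CD274 and NT5E the arrays that stood apart weigh most. Of the 36 pairs, CD274 and NT5E were nearest (0.178), then PDCD1LG2 and CD47 (0.235) and CD276 and NECTIN2 (0.280), while CD274 and VTCN1 were farthest apart (2.41). CD274 and PDCD1LG2, which lie near each other on chromosome 9, were 0.93 apart, since CD274 had the larger differences. Among all genes, the nearest to CD274 were ERO1A (0.154), an oxidase of disulfide bond formation, and NT5E itself. The nearest to NT5E were DPM1 (0.160), a subunit of the enzyme that supplies mannose for glycoproteins, and CD274. PDCD1LG2 had LSG1 (0.0816) and FYTTD1 (0.107), CD47 had ARSK (0.0666) and SCYL2 (0.0690), PVR had GINS3 (0.0608) and UBE2N (0.0751), CD276 had CHMP4B (0.0658) and PLEKHM1 (0.0670), VTCN1 had TNRC18 (0.0504) and GUCA2A (0.0569), NECTIN2 had LZTFL1 (0.0628) and NIT1 (0.0639), and LGALS9 had GLDN (0.136) and DKK3 (0.141).

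Of the 14 regulators of PD-L1 analysed here, 0 passed the test in either direction in any comparison. For the average of the hairpins 12 of the 14 lay below 0 and 2 above, with a median of -0.29, which was 0.15 without the arrays that stood apart. Of all genes, 41.8% lay below NECTIN2, at -0.0014, for that average. How far the directions in this list follow the brightness of its genes was not tested. JAK2, the kinase of the interferon gamma receptor, was at 7.32 and 7.62 on the Ctrl shRNA arrays, 7.81 and 5.95 on the SHP2 sh1 arrays and 7.32, 5.99 and 7.50 on the SHP2 sh2 arrays, and CMTM6, which keeps PD-L1 protein at the cell surface, was at 8.39 and 8.27, 8.66 and 6.81, and 7.76, 6.33 and 8.07. Both had their lowest values on the same arrays as CD274, as had every other regulator measured except RELA, CMTM4 and CD80. Bright genes as a whole were lower on those arrays, and the share of all genes with this order was not computed. IRF1, a transcription factor induced by interferon, was at 7.54 and 7.53, 7.66 and 7.48, and 7.54, 7.49 and 7.95, with differences from its control mean of -0.06 and -0.04 on the arrays where those of CD274 were -3.01 and -3.51. MYC was the 1 regulator lower than both controls on all 5 SHP2 arrays, with differences of -0.41 to -0.84 and a log2 fold change of -0.55 (adjusted p = 0.758 from limma), and CD80 the 1 that was higher. With 1 of 14 in each direction, where 7.17% and 8.13% of all genes did the same, the list lay near the share of all genes.

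**Figure D4:**
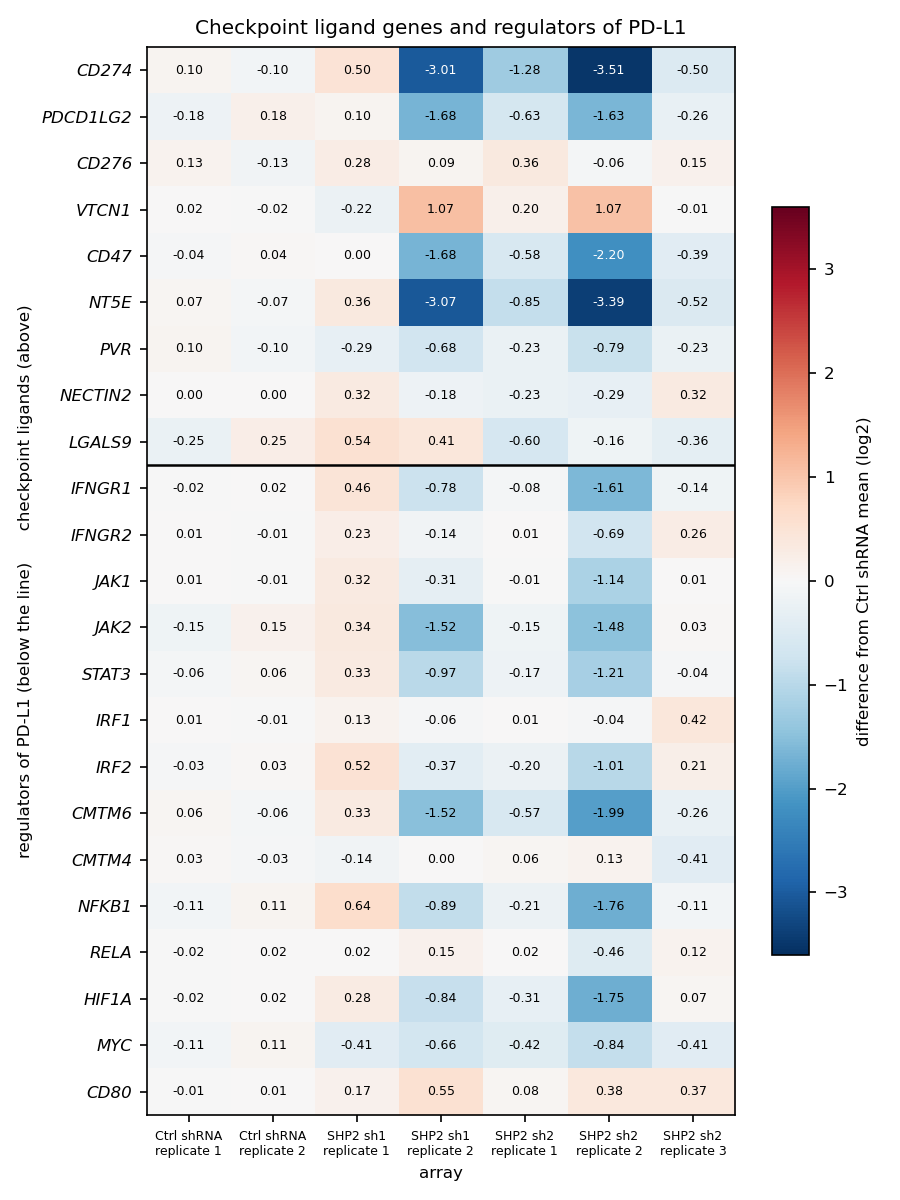
Difference from the Ctrl shRNA mean (log2, colour and printed value) of the 9 checkpoint ligand genes, above the line, and of the 14 measured regulators of PD-L1, below it, on each of the 7 arrays. On SHP2 sh2 replicate 2 CD274 is at -3.51 and CMTM6 at -1.99, while IRF1 is at -0.04.

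The partners of the other ligands were counted in the same way, and 0 passed the test in any list. The share of all genes beside these counts is again the 41.8% that lay below NECTIN2, at -0.0014. On the arrays that stood apart dim genes were higher and bright genes lower in general. The part of this in the directions below was not tested. Of 16 other B7 and co-signalling ligands all 16 were measured, and 12 lay above 0 and 4 below for the average of the hairpins (median 0.22, or 0.09 without the arrays that stood apart). Among them ICOSLG, the ligand of ICOS on T cells, was at 6.60 and 6.73 on the Ctrl shRNA arrays, 6.71 and 7.76 on the SHP2 sh1 arrays and 7.32, 7.36 and 7.01 on the SHP2 sh2 arrays, TNFRSF14, which binds BTLA, had a log2 fold change of 0.36, and the galectins LGALS1 and LGALS3 of -0.06 and 0.27. On all 5 SHP2 arrays NCR3LG1 of these ligands lay below both controls, as 7.17% of all genes did. CD80 and CD40 lay above both, as 8.13% of all genes did. Of 8 nectins and nectin-like genes 7 were measured, with 4 below 0 and 3 above (median -0.02, or -0.01 without the arrays that stood apart). NECTIN3, which pairs with PVR and NECTIN2 at cell contacts, was at 8.26 and 7.94 on the Ctrl shRNA arrays, 7.55 and 6.97 on the SHP2 sh1 arrays and 7.32, 6.79 and 7.55 on the SHP2 sh2 arrays, with a log2 fold change of -0.86 (unadjusted p = 0.020 and adjusted p = 0.758 from limma). It was the 1 of the 7 that lay below both controls on all 5 SHP2 arrays, where 7.17% of all genes did. NECTIN1 had -0.05.

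Of 14 adenosine pathway genes 12 were measured, with 5 below 0 and 7 above (median 0.09). ENTPD1 (CD39), which makes the AMP that NT5E uses, had a log2 fold change of 0.18, ADA, which breaks adenosine down, of -0.03, and the receptor ADORA2B of 0.0037 beside -1.47 for NT5E, which was -0.16 without the arrays that stood apart. ENPP1, an enzyme that also makes AMP, had -0.59 (unadjusted p = 0.014 and adjusted p = 0.758 from limma). It was the 1 of the 12 that lay below both controls on all 5 SHP2 arrays and ENTPD3 the 1 that lay above, where 7.17% and 8.13% of all genes did. All 9 genes of the CD47 axis were measured, with 4 below 0 and 5 above (median 0.12). THBS1, a secreted ligand of CD47, was at 11.48 and 10.66 on the Ctrl shRNA arrays, 11.38 and 10.07 on the SHP2 sh1 arrays and 11.17, 9.53 and 11.54 on the SHP2 sh2 arrays, which overlap, QPCTL, the enzyme that finishes the SIRPA binding site of CD47, had a log2 fold change of 0.15, and SIRPA of 0.12. SIRPG of this axis lay above both controls on all 5 SHP2 arrays, as did 8.13% of all genes. Of 9 receptors of the ligands on immune cells 8 were measured (not PDCD1), with 2 below 0 and 6 above (median 0.09, or 0.02 without the arrays that stood apart), among them TIGIT with 0.04 and HAVCR2, the gene of TIM-3, with 0.07. CD28 among these receptors also lay above both controls on all 5 SHP2 arrays. TIGIT was at 5.15 to 5.81, HAVCR2 at 4.12 to 4.46 and ENTPD1 at 5.05 to 5.54 over the 7 arrays. With no detection call in the file, whether these levels lay above background was not tested.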

How the data were processed

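The authors deposited log2 values, made with oligo by robust multi-array averaging (background correction, quantile normalisation and 1 summary value for a transcript's probes). The version of oligo was not stated in the sources at hand. The values were used without change. The labels name a column-based RNA kit and the methods TRIzol. The methods speak of at least 3 experiments, and the arrays number 2, 2 and 3.

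Of 33297 probes, 19460 had 1 gene symbol in the platform annotation, 1754 several and 12083 were not listed; 19429 IDs were found in RefSeq (GRCh38.p14). Where a gene had several probes (769 genes), that with the largest interquartile range was taken. The file held 0 columns of other samples. limma 3.58.1 in R 4.3.3 fitted 3 group means over 7 arrays, with eBayes, two-sided tests, 95% intervals and p-values adjusted over 18417 genes by Benjamini and Hochberg, with 0.05 as the threshold. The number of arrays limits the precision. The procedure was tested on simulated data with independent noise for each gene and no shift shared across an array. Recovery of the set changes was checked at a spread smaller than that of the data. It therefore cannot tell how the procedure behaves with arrays that stand apart.

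The 9 genes, the other lists and the named genes were chosen with earlier results of these data known. Named were the 9, PTPN11, set genes of each list and, for each of the 9, the 2 genes of nearest pattern. Any other gene with a value was picked after its values were seen, being lower or higher on all SHP2 arrays or a marker. Alternatives were another probe per gene, the mean of probes, leaving out the dimmest 25% of genes, scaling by cyclic loess or by the median, a trend in eBayes, gene-by-gene array weights, a fit of the compared arrays alone, a block for the replicate number, leaving out single arrays, and leaving out both arrays that stood apart. Same-numbered arrays showed correlations of deviations from the group means of -0.06 to 0.02 between Ctrl shRNA and either hairpin. Between hairpins they were 0.62 and 0.85, and 0.81 for SHP2 sh1 replicate 1 with SHP2 sh2 replicate 3, of unlike number. In a group of 2 arrays the deviations mirror each other, so these values cannot decide whether the numbers pair the arrays. The main fit did not pair them, and the block for the replicate number is an alternative.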

Additional observations from a re-analysis of the deposited data

Results flagged for a closer look

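LGALS9 differed between the hairpins on its own probe, while on the probes it shares with LGALS9B and LGALS9C the hairpins overlapped. Its log2 fold change of SHP2 sh2 against SHP2 sh1 was -0.85, with both SHP2 sh1 arrays above the Ctrl shRNA mean of 7.21 and all 3 SHP2 sh2 arrays below it. limma's test of the difference gave an unadjusted p of 0.010 and an adjusted p of 1, so it did not hold after adjustment. Over the alternatives tried, the value ran from -1.03 to -0.74 and the adjusted p from 0.247 to 1.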

How the results depend on the processing

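Of 599 values of the 9 genes under the alternatives tried, 547 kept their direction, 52 turned it and 0 passed the threshold, with a smallest adjusted p of 0.108 from limma. Turned values numbered 11 with SHP2 sh1, 4 with SHP2 sh2, 11 for their average and 26 between hairpins. Array weights gave 122 called genes with SHP2 sh2, none of them among the 9. With these weights 4690 genes had an unadjusted limma p under 0.05 for SHP2 sh2, against 432 in the main fit. Among them were LGALS9 (0.0091), CD274 (0.010), CD47 (0.014), CD276 (0.020), PDCD1LG2 (0.021), NT5E (0.030) and PVR (0.041). All other settings called 0 genes.

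With both arrays that stood apart left out, the median of the 9 with SHP2 sh1 was 0.28, and CD274 (0.50), PDCD1LG2 (0.10), VTCN1 (-0.22), CD47 (0.0043) and NT5E (0.36) turned. NECTIN2 with SHP2 sh2 (0.041), VTCN1 (-0.064) and NECTIN2 (0.18) for the average of the hairpins, and VTCN1 between hairpins (0.31) turned as well. Under cyclic loess NECTIN2 was 0.011 with SHP2 sh2 and 0.057 for the average, LGALS9 -0.023 for the average and CD276 0.065 between hairpins, and median centring gave LGALS9 -0.0029 for the average. Array weights gave LGALS9 -0.041 for the average and, between hairpins, CD274 0.078, PDCD1LG2 0.21, CD276 0.14, CD47 0.27 and NT5E 0.52, and turned the median of the 9 between hairpins to 0.14. The cause was not tested. The replicate number as a block turned VTCN1 (0.21) and PVR (-0.025) between hairpins. It called 0 genes and gave medians of -0.49, -0.51, -0.50 and -0.34. With SHP2 sh2 it moved CD274 to -2.39, NT5E to -2.12 and CD47 to -1.39. Their unadjusted limma p was 0.0033, 0.0074 and 0.0094, against 0.18, 0.22 and 0.16 in the main fit. The adjusted limma p was 0.212 for CD274 and 0.215 for NT5E and CD47. PDCD1LG2 was at -1.13, with an unadjusted limma p of 0.031 and an adjusted one of 0.251. The unadjusted p rose for CD276 (0.5 to 0.587) and LGALS9 (0.162 to 0.223). Genes with an unadjusted p under 0.05 there numbered 3320, against 432. Whether the numbers pair the arrays is undecided.

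With single arrays left out, the median of the 9 genes ran from -0.68 to 0.28 with SHP2 sh1, where leaving out SHP2 sh1 replicate 2 gave 0.28, from -0.63 to -0.42 with SHP2 sh2, from -0.55 to -0.35 for the average and from -0.91 to 0.26 between hairpins, where leaving out SHP2 sh1 replicate 1 or SHP2 sh2 replicate 2 turned it. With SHP2 sh1 the ranges were -3.01 to 0.50 for CD274, -1.68 to 0.10 for PDCD1LG2, -0.22 to 1.07 for VTCN1, -1.68 to 0.0043 for CD47, -3.07 to 0.36 for NT5E and -0.18 to 0.32 for NECTIN2. NECTIN2 ran from -0.26 to 0.041 with SHP2 sh2 and from -0.13 to 0.12 for the average, and LGALS9 from -0.20 to 0.30. Between hairpins CD274 ran from -2.26 to 1.25, PDCD1LG2 from -0.94 to 0.84, CD276 from -0.14 to 0.073, VTCN1 from -0.66 to 0.64, CD47 from -1.06 to 0.62, NT5E from -1.95 to 1.48, PVR from -0.13 to 0.26 and NECTIN2 from -0.39 to 0.11.

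Leaving out the dimmest 25% of genes left VTCN1 without a value and so the median of the 9 was not computed. Only the arrays compared could not be run for the average of the hairpins, which uses all 7. With 2 or 3 arrays a group and a median standard error of 0.26, changes of a size seen for PVR could not be told from the spread.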

Other observations

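Probes 8005458 and 8013450 each name LGALS9 together with LGALS9B and LGALS9C, and were used for no gene. The first was at 8.20 and 8.94 on the Ctrl shRNA arrays, 8.64 and 8.82 on the SHP2 sh1 arrays and 8.21, 8.73 and 7.96 on the SHP2 sh2 arrays. The second was at 8.57 and 9.47, 9.09 and 9.14, and 8.50, 9.10 and 8.32. On both, SHP2 sh2 replicate 2 lay above SHP2 sh1 replicate 1, so the hairpins overlapped, unlike on the probe of LGALS9 alone. SHP2 sh2 replicate 2 also lay above the lower control, as it did on the probe of LGALS9 alone. SHP2 sh1 lay between the controls on both, whereas on the probe of LGALS9 alone both SHP2 sh1 arrays lay above the controls.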
